A study of Bos taurus with 12 samples.

Results

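The 7 genes described here are 6 interferon-stimulated genes, ISG15, MX1, MX2, OAS1X, IFIT5 and DHX58, and IFNAR1, which encodes a subunit of the type I interferon receptor. Each was read by 1 probe, so 7 of the 15208 probes other than controls belonged to them, and 7 of the 6706 distinct gene symbols on the array. Probes were chosen by the gene name, or by the symbol that their accession or description gave. The tissue came from Japanese Black cows and was the corpus luteum, the gland that forms from the ovulated follicle and secretes progesterone. The P18 group held 4 cows on day 18 of gestation, the P15 group 4 cows on day 15 of gestation, and the NP15 group 4 cows on day 15 of the estrous cycle that were not pregnant. Insemination was day 1 of gestation, and each cow gave 1 array, hybridised with 1 Cy3-labelled RNA sample.

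Type I interferons bind a receptor made of IFNAR1 and IFNAR2, and the signal passes through a complex that holds IRF9 to genes that carry interferon-response elements. In ruminants the elongating conceptus secretes interferon tau, a type I interferon that acts on the uterus in early pregnancy, and transcripts such as ISG15 and MX1 are widely used to follow the response in other maternal tissues, the corpus luteum among them. ISG15 is a ubiquitin-like protein that is attached to other proteins. MX1 and MX2 are dynamin-like antiviral GTPases, OAS1X is a 2',5'-oligoadenylate synthetase, IFIT5 binds viral RNA, and DHX58, also called LGP2, is an RNA-binding relative of the RIG-I sensor.

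The 60-base probes of 6 of the 7 genes are shown because each value of these genes below is the hybridisation signal of that sequence, and because MX1 with MX2, and OAS1X with its paralogs, could in principle be read by each other's probe. They are printed 5′ to 3′ as the array files give them, in lower case, with the polyadenylation signal motif AATAAA in capitals.
MX1: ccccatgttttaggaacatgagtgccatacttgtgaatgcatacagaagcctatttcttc
MX2: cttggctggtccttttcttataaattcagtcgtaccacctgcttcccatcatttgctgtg
OAS1X: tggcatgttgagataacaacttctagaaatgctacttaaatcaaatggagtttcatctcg
IFIT5: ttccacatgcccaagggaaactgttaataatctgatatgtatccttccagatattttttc
DHX58: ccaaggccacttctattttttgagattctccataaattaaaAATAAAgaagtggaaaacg
IFNAR1: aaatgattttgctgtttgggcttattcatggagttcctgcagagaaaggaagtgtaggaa

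The motif AATAAA, searched on the strand printed, was in 1 of the 7 probes, that of DHX58, and in 1714 of the 15208 probes, or 11.3%. The GC content of the 7 probes lay between 31.7% and 55.0%, against a median of 43.3% over all probes. The longest run of bases that any pair of the 7 probes shared was 8, and the MX1 and MX2 probes shared a run of 6. With any other probe of the array the longest shared run was 11 to 15 bases. The probes were not aligned to transcripts here, so cross-hybridisation with OAS1Y and OAS1Z, the neighbours of OAS1X in the bovine genome, was not tested. MX1 and MX2 also lie next to each other, and IFNAR1 lies between IFNGR2 and IL10RB. The files name the OAS1X probe OAS1 and the DHX58 probe LGP2, and the IFIT5 probe was designed on an expressed sequence tag described only as similar to IFIT5.

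All values are on the log2 scale, as the background-corrected spot signal relative to the 75th percentile of its own array, so 0 is the level that 75% of the probes on that array lie under. The 75th percentile was 3000 to 3558 intensity units in P18, 2649 to 3773 in P15 and 2868 to 4183 in NP15. All 7 probes passed the filter on dim probes, which kept the 12605 probes with a signal well above background in 3 or 4 animals of any group. None was saturated or marked as an outlier. The P15 and NP15 arrays lay on slide 1 and the P18 arrays on slide 2, scanned separately, so slide and group cannot be told apart for P18. The net signal of negative controls was 77.3 to 92.9 in P18, 31.7 to 36.3 in P15 and 34.6 to 38.7 in NP15, and 67.5% to 72.6% of probes were well above background in P18, 75.3% to 80.5% in P15 and 79.6% to 85.6% in NP15. The replicate number equals the slide column, so column and animal cannot be told apart. All 7 luteal steroidogenic markers on the array, among them STAR, CYP11A1 and HSD3B1, were well above background on all 12 arrays.

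ISG15 and OAS1X rose on day 18 of gestation relative to the cyclic animals, and IFNAR1 fell. MX1 and DHX58 were higher in every P18 array than in any NP15 array, but missed the threshold, which each passed under some of the alternatives tried. In all, 3 of the 7 probes were called at an adjusted p under 0.05 (limma, Benjamini-Hochberg over 12605 probes) in P18 against NP15, where 29.9% of all probes were called. Of the 7, 2 were called higher, against 11.2% of all probes, and 1 lower, against 18.7%.

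ISG15 stood at 2.33, 2.94, 5.44 and 2.48 in the 4 P18 arrays. In P15 arrays it stood at -0.52, -1.09, 1.78 and 3.06, and in NP15 arrays at 0.15, 0.13, 0.44 and 1.65. Every P18 array was above every NP15 array, while P15 spanned the range from below all NP15 arrays to above 3 of the P18 arrays. The mean was 3.30 ± 1.45 in P18, 0.81 ± 1.95 in P15 and 0.59 ± 0.72 in NP15 (SD, n = 4 each). The difference of P18 from NP15 was 2.70 (SE 0.93), a 6.52-fold higher signal, with a limma adjusted p of 0.0485. The call was lost on leaving out any of the P18 replicates, NP15 replicate 1, 2 or 3, or P15 replicate 3, and the difference was 1.99 without P18 replicate 3. In bulk tissue, fewer or more cells of a type and less or more RNA per cell cannot be told apart.

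OAS1X stood at -3.32, -2.78, 0.43 and -2.55 in the P18 arrays. The P15 arrays gave -5.11, -6.77, -2.06 and -2.84, and the NP15 arrays -6.27, -4.08, -5.18 and -6.51. All 4 P18 arrays lay above all NP15 arrays, P18 replicate 3 stood far above the rest of its group, and P15 split into a pair of high and a pair of low arrays, the lowest of which was not well above background. The difference of P18 from NP15 was 3.45 (SE 1.09), or 10.9-fold, with a limma adjusted p of 0.0337. The NP15 signals under this fold were dim, at 45.1, 247.5, 92.9 and 31.5 intensity units, though all 4 were well above background. The difference was 2.62 without P18 replicate 3, with an adjusted p of 0.0910. The call was also lost without P18 replicate 4 and without NP15 replicate 1, 3 or 4.

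MX1 stood at 3.28, 3.37, 5.27 and 2.51 in the P18 arrays. The values were 0.91, 1.05, 2.76 and 3.53 in P15 arrays, and in NP15 arrays 2.05, 1.66, 2.18 and 0.86. P18 did not overlap NP15 and overlapped P15. The difference of P18 from NP15 was 1.92 (SE 0.68) with a limma adjusted p of 0.0531. It was called with median centring, normexp background correction, no filter on dim probes and only the 8 arrays compared. Leaving out P18 replicate 4, P15 replicate 1 or P15 replicate 4 also gave a call.

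DHX58 stood at -1.45, -1.34, 0.44 and -1.95 in the P18 arrays. In P15 arrays it stood at -2.87, -2.97, -1.93 and -1.49, and in NP15 arrays at -2.73, -2.53, -2.40 and -1.97. The lowest P18 array and the highest NP15 array were close, at -1.95 and -1.97, and the difference of 1.33 (SE 0.49) had a limma adjusted p of 0.0598. It was called with quantile normalization, median centring, normexp background correction, array weights and without P18 replicate 4. Over all probes, 12.4% had every P18 array above every NP15 array and 18.6% had every P18 array below; of the 7 probes, 4 and 1 did.

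MX2 stood at -5.69, -5.18, -3.57 and -4.91 in the P18 arrays. The P15 arrays read -6.79, -6.50, -5.73 and -4.31, and the NP15 arrays -6.42, -6.17, -5.92 and -5.43. P18 replicate 1 lay within the range of NP15, and the difference of P18 from NP15 was 1.15 (SE 0.55) with a limma adjusted p of 0.144.

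IFIT5 stood at -0.07, -0.33, 1.33 and -0.33 in the P18 arrays. P15 arrays lay at -0.50, -0.30, 0.05 and 0.30, and NP15 arrays at -0.26, -0.48, -0.30 and -2.04. The 3 groups overlapped, with 2 P18 arrays and 2 P15 arrays above all NP15 arrays. P18 replicate 3 stood highest and NP15 replicate 4 lowest. The difference of P18 from NP15 was 0.92 (SE 0.45) with a limma adjusted p of 0.152.

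**Figure D1:**
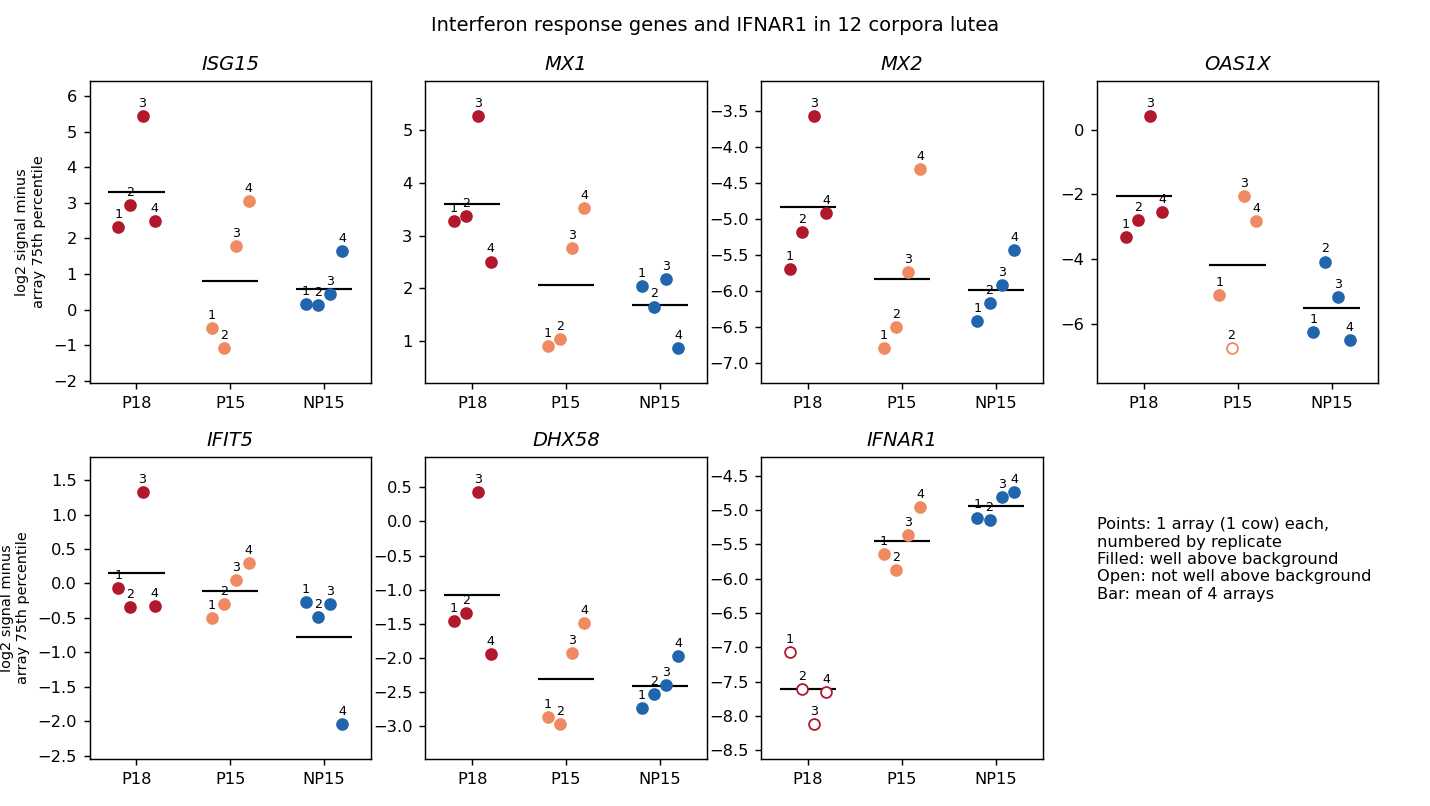
Log2 signal minus the array's 75th percentile (vertical axis) of the 7 genes in P18, P15 and NP15 (left to right); each point is 1 array, numbered by replicate, open where not well above background, and bars are means of 4 arrays. P18 replicate 3 is the highest P18 array for the 6 interferon-stimulated genes and the lowest for IFNAR1, and P15 replicates 3 and 4 are the 2 highest of their group for all 7 genes.

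IFNAR1 stood at -7.06, -7.60, -8.12 and -7.65 in the P18 arrays, none of them well above background. In P15 arrays it stood at -5.64, -5.87, -5.36 and -4.95, and in NP15 arrays at -5.11, -5.14, -4.81 and -4.73, all 8 well above background. P18 did not overlap either other group. The mean was -7.61 ± 0.43 in P18, -5.46 ± 0.40 in P15 and -4.95 ± 0.21 in NP15 (SD, n = 4 each). The measured difference of P18 from NP15 was -2.66 (SE 0.24) with a limma adjusted p of 4.08e-05. Because the P18 level is only a bound, the fold is given as at least 1.84-fold lower in P18. For that bound each P18 array was set at its dimmest probe that was well above background, or at the IFNAR1 probe itself where this was brighter. The higher negative-control signal of the P18 arrays, given above, moves with this fall, and its part in it was not tested. The bound holds for the scaling used here. With normexp background correction and an offset of 50 the difference was -0.73, a smaller fold than that bound, and was still called.

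**Figure D2:**
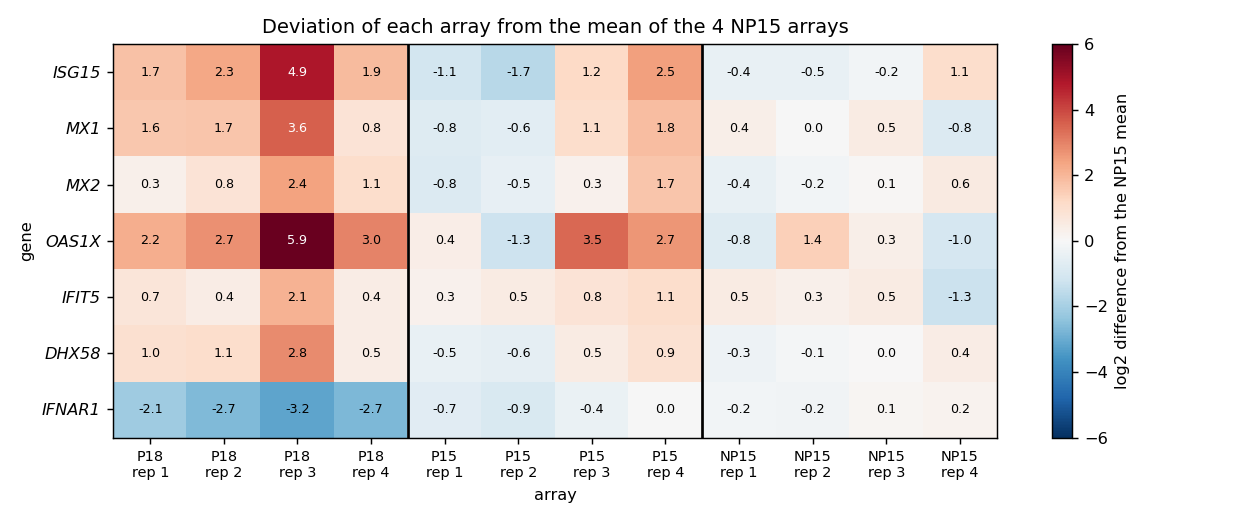
Difference of each array (columns, P18, P15 and NP15 from left to right) from the mean of the 4 NP15 arrays, in log2 units, for the 7 genes (rows). P18 replicate 3 holds the most positive value of all 12 arrays for each of the 6 interferon-stimulated genes and the most negative value for IFNAR1.

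Between the 2 days of gestation, IFNAR1 was again lower on day 18, and it was the 1 probe of the 7 that was called in P18 against P15, where 29.0% of all probes were called and 15.6% were called lower. The measured difference was -2.15 (SE 0.24), with a limma adjusted p of 0.000146, and the fold was at least 1.29-fold lower in P18. The 6 interferon-stimulated genes had positive differences that missed the threshold. ISG15 differed by 2.49 (SE 0.93, adjusted p 0.0673), OAS1X by 2.14 (SE 1.09, adjusted p 0.167), and MX1 by 1.55 (SE 0.68, adjusted p 0.113). DHX58 differed by 1.24, MX2 by 0.99 and IFIT5 by 0.26, with limma adjusted p of 0.0792, 0.207 and 0.708. The P18 and P15 arrays overlapped for each of these 6 genes, and IFNAR1 alone did not overlap. Over all probes, 16.7% were higher and 18.4% lower in P18 without overlap. Without P15 replicate 4, 5 of the 7 probes were called, and without P18 replicate 4, 2 were. The shares of all probes called in those fits are not set beside these counts.

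On day 15, none of the 7 probes was called in P15 against NP15, where 0.976% of all probes, 123 of 12605, were called by limma. None had an unadjusted p under 0.05 either, against 1112 of all probes, and no other setting tried called one. Every one of the 7 overlapped between P15 and NP15, while 1.55% of all probes were higher and 4.98% lower without overlap. The differences were 0.21 for ISG15 (SE 0.93), 0.37 for MX1 (SE 0.68), 0.15 for MX2 (SE 0.55), 1.31 for OAS1X (SE 1.09), 0.66 for IFIT5 (SE 0.45), 0.09 for DHX58 (SE 0.49) and -0.51 for IFNAR1 (SE 0.24). The smallest limma adjusted p of the 7 was 0.592, for IFNAR1. These standard errors are wide, and a p that misses the threshold does not show that the groups were alike. Row and group coincide here, since NP15 filled row 1 of slide 1 and P15 row 2, and the 2 cannot be told apart.

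**Figure D3:**
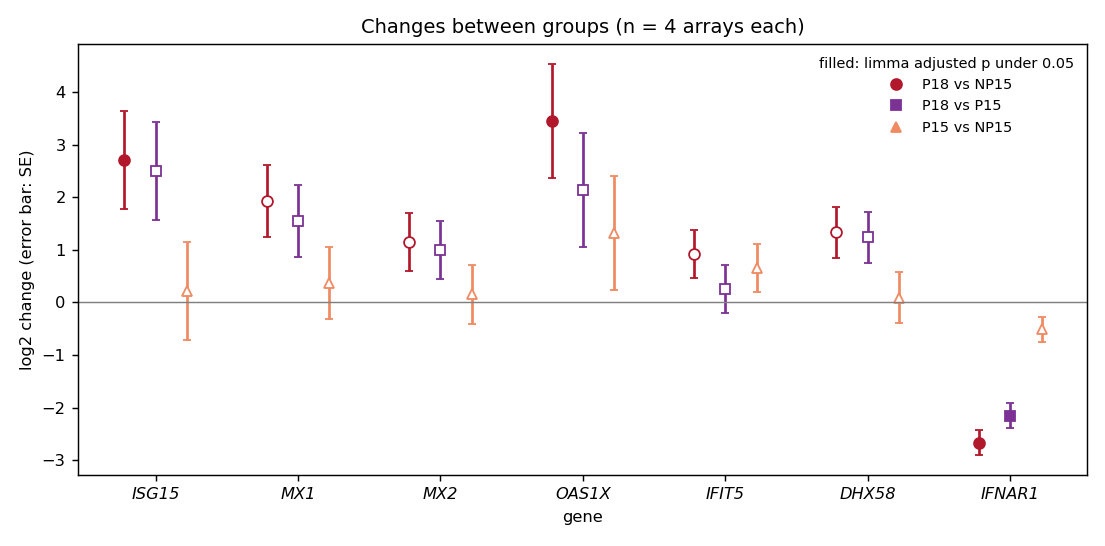
Log2 change (points) with its standard error (bars) of the 7 genes in P18 against NP15, P18 against P15 and P15 against NP15, n = 4 arrays per group; filled symbols are called by limma. ISG15, OAS1X and IFNAR1 are filled in P18 against NP15, and IFNAR1 alone in P18 against P15.

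Most of these genes spread widely among the animals of a group. In P15 the SD was 1.95 for ISG15, 2.15 for OAS1X, 1.29 for MX1 and 1.11 for MX2, each larger than that of 97.7% to 99.8% of all probes, whose median SD in P15 was 0.208. P15 replicates 3 and 4 were above replicates 1 and 2 for all 7 genes. In P18 the SD was 1.45 for ISG15 and 1.69 for OAS1X, larger than that of 98.6% and 99.2% of all probes, with replicate 3 highest for all 6 interferon-stimulated genes. IFIT5 in P15 had an SD of 0.35, larger than that of 74.3% of all probes. In NP15 the SD was 1.12 for OAS1X, 0.85 for IFIT5, 0.72 for ISG15 and 0.59 for MX1, larger than that of 95.9%, 91.8%, 88.6% and 83.9% of all probes. For IFNAR1 in NP15 it was 0.21, and 36.4% of all probes had a smaller one. The difference in spread between groups was not tested.

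With the group means subtracted, so that only the spread among animals of a group was compared, 4 of the 21 pairs of genes were correlated. Over the 12 arrays the 10 pairs among ISG15, MX1, MX2, OAS1X and DHX58 had a Pearson r of 0.67 to 0.94. P-values come from an exact permutation test within groups (13824 permutations, two-sided) and were adjusted over all 21 pairs. ISG15 and MX2 had r = 0.94 (exact permutation p 0.00203, adjusted 0.0142) and ISG15 and DHX58 r = 0.93 (exact permutation p 0.000723, adjusted 0.00836). MX1 and IFIT5 had r = 0.81 (exact permutation p 0.000796, adjusted 0.00836) and MX2 and DHX58 r = 0.86 (exact permutation p 0.00470, adjusted 0.0247). On ranks only ISG15 with MX2 passed, with a Spearman rho of 0.94 (exact permutation p 0.00137, adjusted 0.0289). The rho was 0.90 for ISG15 with DHX58 and 0.79 for MX1 with IFIT5 (exact permutation p 0.0104 and 0.00796, both adjusted to 0.0729), and 0.79 for MX2 with DHX58 (exact permutation p 0.0349, adjusted 0.177).

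No pair passed once the 2 arrays farthest from the median of the first gene of the pair were left out. The arrays left out can therefore differ between pairs. The r was then 0.80 for ISG15 with MX2, 0.91 for ISG15 with DHX58, 0.70 for MX1 with IFIT5 and 0.64 for MX2 with DHX58. Without P18 replicate 3, 2 pairs passed. IFIT5 had an r of 0.38 with ISG15, 0.38 with MX2 and 0.50 with DHX58 over the 12 arrays. Without the 2 arrays farthest for ISG15, for MX2 and for IFIT5, in that order, these were -0.29, -0.41 and 0.83. The arrays left out were not the same for all of them. Over the 8 arrays of slide 1, which hold the low IFIT5 value of NP15 replicate 4, they were 0.03, 0.06 and -0.01. None of these passed, and differences between the correlations were not tested.

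IFNAR1 gave a different picture within slide 1 than over all arrays. Over 12 arrays its r with the 6 other genes lay between -0.30 and 0.22, and none of the 6 pairs passed. Over the 8 arrays of P15 and NP15, where its probe was well above background, its r was 0.95 with ISG15, 0.92 with MX2 and 0.94 with DHX58, and all 3 passed (exact permutation within groups, 576 permutations, p 0.00174, 0.0122 and 0.00347, adjusted 0.0146, 0.0417 and 0.0146). The other 3 pairs of IFNAR1 did not pass, with MX1 at 0.67, OAS1X at 0.56 and IFIT5 at 0.02 (exact permutation, adjusted p 0.358, 0.399 and 0.974). NP15 replicate 4 was the highest NP15 array for ISG15, MX2, DHX58 and IFNAR1, and the lowest for MX1, OAS1X and IFIT5. It also had the most spots marked as outliers, 9, and the lowest limma array weight, 0.20, against 0.70 to 1.77 for the other arrays. When this array alone was left out of the 12, 12 of the 21 pairs passed, against 4 with it. The correlations over slide 1 were not run without it, so its part in those of IFNAR1 was not tested. In P15 and in NP15 the animals ranked by ISG15 and by IFNAR1 in the same order, replicates 4, 3, 1 and 2 from high to low. The summed T and natural killer cell markers, described last, had the same order in both groups. The luteal steroidogenic and myeloid sums had it in NP15, and the B and plasma cell and the fibroblast and pericyte sums had it in P15. The part of these cells in the correlations was not tested. The replicate number is also the slide column, so the order is shared by column, and the permutations, drawn within each group apart, treat the arrays as independent of it. In P18, where IFNAR1 was not well above background, replicate 3 had the highest ISG15 and the lowest IFNAR1. On slide 1 IFNAR1 was 33rd of 12604 probes in its r with ISG15, and 104 probes had an r over 0.9. Without subtracting group means, r of IFNAR1 with the 6 genes was -0.66 to -0.50, a value that includes the difference of P18 from the other groups.

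**Figure D4:**
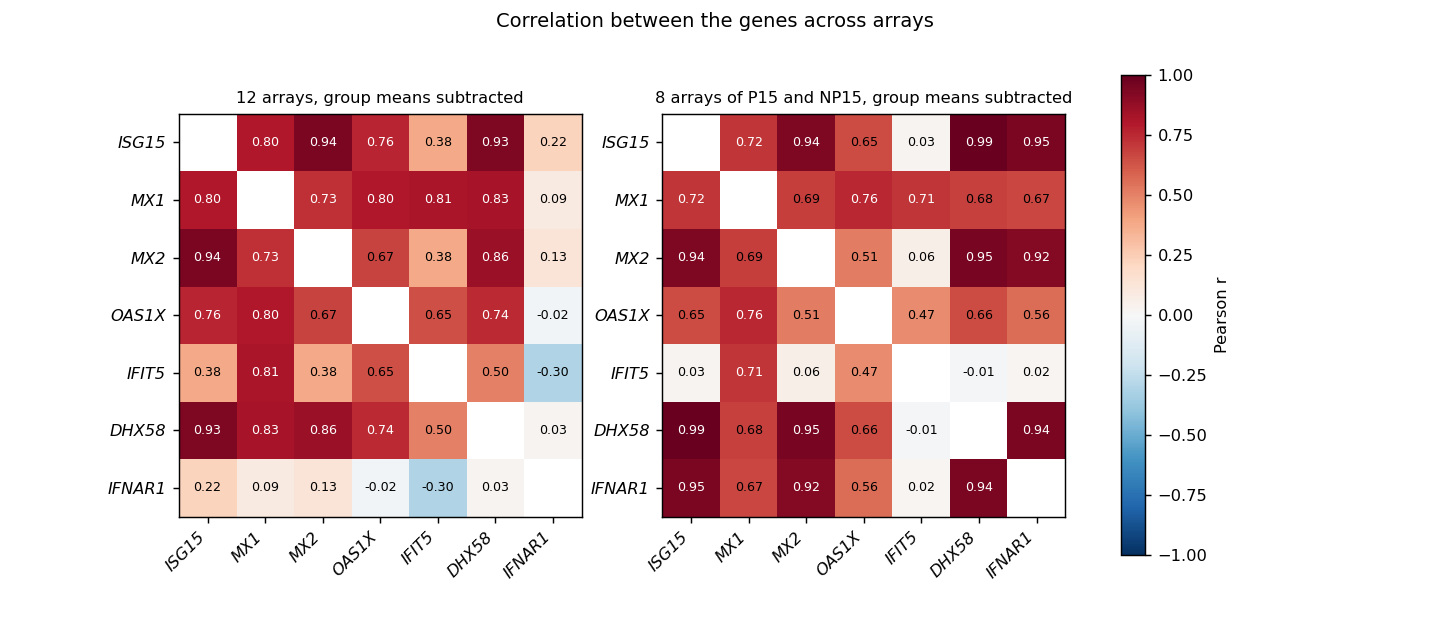
Pearson r between the 7 genes with group means subtracted, over 12 arrays (left) and over the 8 arrays of P15 and NP15 (right), on a colour scale of -1 to 1. IFNAR1 lies between -0.30 and 0.22 with the others on the left, and on the right at 0.95, 0.92 and 0.94 with ISG15, MX2 and DHX58 and at 0.67, 0.56 and 0.02 with MX1, OAS1X and IFIT5.

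Across all probes, the 8 nearest to ISG15 with a symbol, with group means subtracted, were RTP4 at r = 0.97, IRF9 at 0.96, OAS2 at 0.96, KIF5C at 0.96, PARP9 at 0.95, RSAD2 at 0.94, MX2 at 0.94 and XAF1 at 0.94. RTP4, OAS2, PARP9, RSAD2 and XAF1 are interferon-induced genes, IRF9 is the DNA-binding subunit of the interferon-activated factor, and KIF5C is a kinesin motor. Of the 50 nearest probes, 35 had a symbol and 14 were of the 7 genes or of the pathway lists described next. Those genes and lists made up 50 of the 12605 probes kept. Without subtracting group means the nearest with a symbol were IRF9 at 0.97, RTP4 at 0.97, DHX58 at 0.97, MX2 at 0.95 and CHMP5 at 0.94. For IFNAR1, in the same form, they were CAMSAP1 at 0.98, SBF2 at 0.97, CSAD at 0.96, TOP1 at 0.96 and LIG3 at 0.96. These lay at ranks 3 to 22, with probes without a symbol between them. None of the 50 probes nearest to IFNAR1 was of the 7 genes or the lists. Only 16 of those 50 had a symbol, and the others could not be matched to a list. These values of r include the difference of P18, where IFNAR1 was not well above background. With group means subtracted, other genes were the nearest to IFNAR1 with a symbol. They were PSMA7 at 0.87, PNRC1 at 0.85, LOX at 0.84, RENBP at 0.84 and FUT4 at 0.84. These likenesses are descriptions over 12 arrays that share their slides and scaling.

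Other genes of the interferon pathway were taken as 7 lists with 102 genes, of which 47 were on the array and 42 were tested. In P18 against NP15, 1 of the 42 was called higher and 0 lower by limma, against 11.2% and 18.7% of all probes. The median difference was 0.14, against -0.06 over all probes, and 26 of the 42 (61.9%) were positive, against 45.6% of all probes. In P18 against P15, 1 was called higher and 1 lower, with a median of 0.18 against -0.03. In P15 against NP15, none was called, with a median of 0.03 against -0.06.

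Among the 5 receptor and signalling genes tested, IFNGR2, a subunit of the interferon gamma receptor, was called higher in P18 than in P15 by 0.70 (SE 0.19, limma adjusted p 0.0184). Its probe was well above background on only 1 P18 array and 3 P15 arrays, and the call was lost without P18 replicate 3 or 4. IRF9 stood at 1.93, 2.10, 3.23 and 1.80 in P18, against 1.12, 1.24, 1.49 and 1.76 in NP15, without overlap, and its difference of 0.86 missed the threshold (limma adjusted p 0.0902). Against P15 its difference was 1.02 (limma adjusted p 0.0512). IFNAR2, the other subunit of the receptor, stood at 0.91, 0.77, 1.0 and 1.0 in P18, against 1.13, 1.03, 1.71 and 1.86 in NP15. Its P18 values lay below all NP15 values, and the difference of -0.51 missed the threshold (limma adjusted p 0.0690).

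Of the 8 antiviral effectors and 6 RNA and DNA sensors tested, none was called in any of the 3 comparisons. RIGI, the sensor related to DHX58, stood at -0.54, -0.18, 1.79 and -0.64 in P18, against -1.16, -1.07, -0.95 and -0.95 in NP15. Its P18 replicate 3 was again the highest array, and the difference of 1.14 had a limma adjusted p of 0.105. The kinase EIF2AK2 differed by 0.84 (adjusted p 0.104), IFIT3 by 0.91 (adjusted p 0.247) and OAS2 by 0.68 (adjusted p 0.487). STING1, the adaptor of DNA sensing, differed by -1.13 (limma adjusted p 0.129), with none of its P18 arrays well above background. The median difference of the 6 sensors was -0.14, and 2 of the 6 were positive. For the 8 effectors the median was 0.46, and 6 of the 8 were positive. Of the 14 other interferon-induced genes tested, 11 had a positive difference from NP15 and none was called. OASL, an oligoadenylate synthetase relative, differed by -1.08 (limma adjusted p 0.198), opposite in sign to OAS1X.

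UBA7, the activating enzyme that starts the attachment of ISG15 to proteins, was the 1 gene of its list of 4 on the array. It stood at -1.69, -1.74, -1.0 and -1.96 in P18, against -0.82, -0.82, -0.86 and -0.48 in P15, with no overlap. The difference of -0.85 (SE 0.21) was called (limma adjusted p 0.0119), and the call was lost with median centring (-0.63). Against NP15 UBA7 differed by -0.58 (limma adjusted p 0.0635). USP18, the protease that removes ISG15, differed from NP15 by 1.29 (limma adjusted p 0.185), with P18 replicate 3 at 1.59 and the other P18 arrays at -1.30, -1.44 and -1.37.

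Among the interferon ligands, IFNAC, an interferon alpha gene, was the 1 list gene called in P18 against NP15, higher by 1.68 (SE 0.58, limma adjusted p 0.0495). Its probe was well above background on 1 P18 array and 3 NP15 arrays, so the values are near background. The call was lost without any 1 of the P18 replicates, P15 replicate 1, 2 or 3, or NP15 replicate 2, 3 or 4, with a difference of 1.04 without NP15 replicate 4. IFNG differed by 0.87 (limma adjusted p 0.483).

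With group means subtracted, 14 of the 42 list genes (33.3%) had an r with ISG15 over 0.8, against 0.69% of all kept probes. Without P18 replicate 3 it was 12 genes (28.6%), against 1.25%. The median r was 0.72 for the list genes and -0.04 for all probes.

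**Figure D5:**
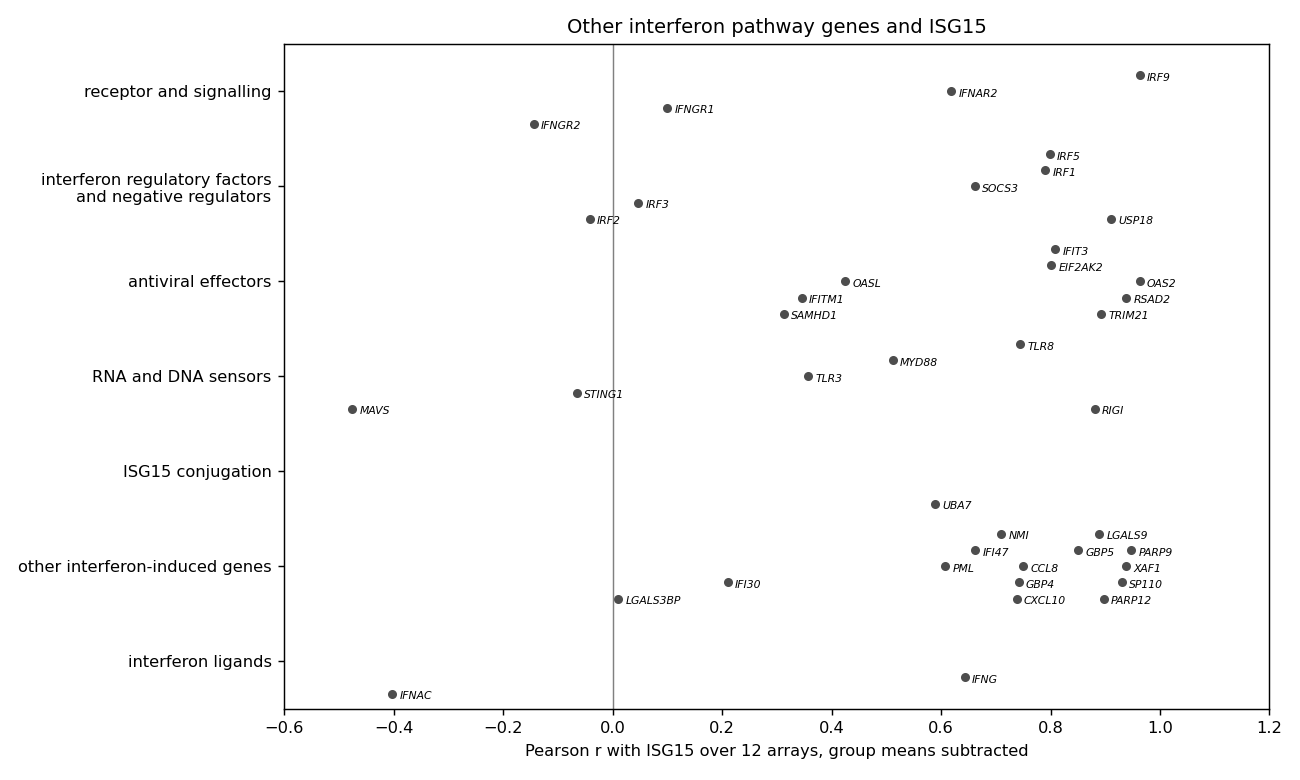
Pearson r with ISG15 over 12 arrays with group means subtracted (horizontal axis) of the pathway genes tested, by list (vertical axis), with 1 of the 42 not shown; points are spread vertically within a list for legibility only. IRF9 and OAS2 lie at 0.96 and MAVS, the adaptor of the RNA sensors, at -0.48.

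Markers of several cell types were summed on the linear scale, where the brightest marker weighs most, and the sums were not tested. The summed level of the 10 T and natural killer cell markers kept, relative to the 75th percentile, ranged from 1.04 to 6.80 in P18, 0.86 to 3.42 in P15 and 1.01 to 2.40 in NP15. Replicate 4 was the highest array in each group. In P15 and in NP15 the sums ranked replicates 4, 3, 1 and 2 from high to low, the order of ISG15 in both groups, while in P18 the sum was highest in replicate 4 and ISG15 in replicate 3. The 8 myeloid markers kept summed to 2.59 to 4.91 in P18, 1.87 to 3.95 in P15 and 1.91 to 3.59 in NP15, and replicate 4 was again highest in each group. The 3 B and plasma cell markers kept summed to 0.36 to 0.79 in P18, 0.38 to 0.52 in P15 and 0.39 to 0.56 in NP15, also highest in replicate 4 of each group. The order 4, 3, 1 and 2 was also that of the myeloid and steroidogenic sums in NP15. It was that of the B and plasma cell and the fibroblast and pericyte sums in P15. The 7 fibroblast and pericyte markers summed to 65.2 to 82.6 in P18, 88.2 to 100.9 in P15 and 88.4 to 99.1 in NP15, with P18 below both other groups without overlap. The 7 luteal steroidogenic markers summed to 356 to 450 in P18, 388 to 518 in P15 and 502 to 648 in NP15, with P18 below NP15 without overlap. The 9 endothelial markers summed to 15.2 to 18.0 in P18, 17.7 to 22.1 in P15 and 17.8 to 25.6 in NP15, with overlap. Of the 9 trophoblast markers, 6 were on the array and 1, CDX2, was kept, at a level of 0.0117 or less on all 12 arrays. The part of these cells in the results was not tested.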

How the data were processed

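Per the file headers, the deposited scanner files hold linear spot intensity from Agilent Feature Extraction 9.5.1.1 (9.5 in the submitters' processing notes), which corrected background and spatial trend. The authors' deposited log2 values were, in each array, the logarithm of that signal minus 1 constant, which lay within 0.0142 of the 75th percentile. Later steps of the authors are not given in the sources used.

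Here each array's signal was scaled to its 75th percentile and put on the log2 scale, control spots were left out and outlier spots set to missing. Alternatives tried were other normalizations, background correction, filters, array weights, array row, the replicate block and leaving out each array. Names came from accession, gene number, symbol or description through a table of bovine genes (ARS-UCD2.0), used for names and neighbours only, and 8180 probes had no name. The tests between groups used limma 3.58.1 (R 4.3.3) on all 12 arrays (two-sided, Benjamini-Hochberg over 12605 probes, threshold 0.05), after a test on simulated data. Correlations used numpy 2.4.6 and scipy 1.17.1. The p-values measure the spread among 4 animals a group, and the number of arrays limits the precision.

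The genes and lists were chosen with earlier results of these data known. All 7 genes are named. From each list, named genes come from those called and up to 4 with the smallest p. Of the probes with a symbol, those nearest to ISG15 (8 and 5) and IFNAR1 (5) by r are named. Of the probe sequences and list genes, 1 probe sequence and 1 gene are not reported here.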

Additional observations from a re-analysis of the deposited data

Results flagged for a closer look

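IFIT5 in P18 replicate 3 stood at 1.33, and its gap to the next array was 0.839 of the range of the group. IFIT5 in NP15 replicate 4 stood at -2.04, below the other 3 arrays by 0.877 of the range. Both exceed Dixon's 95% critical value for 4 samples. The 7 genes in 3 groups gave 21 such groups of values, 2 of which passed that value, and chance gives about 1 in 20.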

How the results depend on the processing

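IFNAR1 kept its call and direction under every alternative that could test it, at -3.26 to -0.73 in P18 against NP15 and -2.80 to -0.46 in P18 against P15. Of the 7 probes, P18 against NP15 called 3, against 5 with median centring, 5 with normexp, 1 with only probes above background on all 12 arrays (a fit without IFNAR1 and OAS1X) and 1 to 4 without 1 array. P18 against P15 called 1, against 3 with median centring, 0 with the 12-array filter, 3 with array weights, 2 with the replicate block and 1 to 5 without 1 array. The share of all probes called in each of these fits is not set beside these counts. A higher count therefore does not set the 7 genes apart from other probes. Over all probes, P15 against NP15 called 123, against 76 with normexp, 65 with only the 8 arrays compared, 214 with array weights, 40 with adjustment for array row, 75 with the replicate block and 67 to 121 without 1 array (both groups lie on slide 1, so slide as a block cannot change this count). P18 against P15 called 3659, and 5506 with no filter on dim probes.

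Pathway list genes higher in P18 than NP15 numbered 1, against 2 with quantile normalization, 5 with median centring, 2 with normexp, 2 with no filter, 0 with the 12-array filter, 0 with the brightest probe per gene, 0 with 8 arrays, 4 with row adjustment, 2 with the replicate block and 0 to 2 without 1 array. Those lower numbered 0, against 2 with the replicate block and 0 to 2 without 1 array. Higher in P18 than P15 there was 1, against 3 with median centring, 3 with normexp, 2 with no filter, 4 with array weights, 3 with the replicate block and 0 to 4 without 1 array. Lower there was 1, against 0 with median centring, 2 with quantile normalization, normexp, no filter, the 12-array filter, array weights or the replicate block, and 1 to 2 without 1 array. As above, the share of all probes called in each fit is not set beside these counts.

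Correlated pairs numbered 4, against 16 without subtracting group means, 7 on slide 1 alone, 0 without the 2 farthest arrays and 2 to 12 without 1 array, with 12 pairs when NP15 replicate 4 was left out and 2 when P15 replicate 3, P15 replicate 4 or P18 replicate 3 was. Signs turned for LGALS9 in P18 against NP15 with normexp (0.0559) and for MX1 in P15 against NP15 with array weights (-0.0467). Leaving out 1 array gave P15 against NP15 differences of -0.54 to 0.85 for ISG15, -0.11 to 0.76 for MX1, -0.36 to 0.47 for MX2 and -0.18 to 0.31 for DHX58, and -0.13 to 0.42 for IFIT5 in P18 against P15. The cause of these changes was not tested. ISG15 in P18 against NP15 missed the threshold with quantile normalization (2.61, adjusted p 0.0615). Median centring moved the median of all probes in P18 against NP15 to 0.18 and in P18 against P15 to 0.20. It gave 68.2% of calls as higher in P18 than NP15, normexp gave 56.7%, and the scaling used above 37.4%. In P18 against P15 these shares were 73.2%, 61.6% and 46.4%, and in P15 against NP15 42.6%, 59.2% and 40.7%.

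Same-numbered arrays had correlated deviations of 0.0964 to 0.293 in P15 and NP15, -0.04 to 0.17 in P18 and NP15, and -0.03 to 0.15 in P18 and P15. All values of P15 and NP15 were thus positive. The number is also the slide column, and whether arrays of a column share a shift was not tested. The labels name no batch that same-numbered arrays share, and the main fit held no replicate block. With the replicate block ISG15 and IRF9 passed in P18 against P15 (limma adjusted p 0.0407 and 0.0383) and IFNAR2 and IFNGR2 in P18 against NP15 (0.0194 and 0.0449).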
